A study of Mus musculus with 10 samples.

Results

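Genes that normal beta cells keep silent or at a very low level were examined in pancreatic islets of diabetic and lean mice. The 10 genes, chosen by gene symbol, were Ldha, Slc16a1, Acot7, Oat, Cat, Mgst1, Tst, Zfp36l1, Rest and Lmo4. All 10 symbols were found on the array, on 11 of its 23512 probes, as Zfp36l1 had 2 probes. All 11 probes had enough values to be tested, among 23138 tested probes in all.

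Islets were taken from db/db mice, which lack a working leptin receptor through the db mutation on both gene copies, and from lean db/+ mice with the mutation on 1 copy, all on the C57BLKS/J background and 9 weeks old. At this age the obese db/db mice are severely hyperglycaemic and only modestly hyperinsulinaemic, a stage of beta cell decompensation per the labels. Each group had 5 biological replicates on 1 array each, with the islet RNA of the mouse in Cy5 and a control reference, given as db/+ islet RNA of the same age, in Cy3. The controls thus carry the db mutation too, no treatment was listed, and the islets hold alpha, delta and other cells besides beta cells.

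Beta cells release insulin in proportion to the glucose they oxidise, and they depend on pyruvate entering the mitochondria. Enzymes and carriers that would divert pyruvate, or let it in from the blood, are kept off in these cells, and genes under such selective repression are known as disallowed or forbidden genes of the beta cell. Ldha (lactate dehydrogenase A) and Slc16a1 (the monocarboxylate transporter MCT1) are the best known of them. Others take part in acyl-CoA hydrolysis, amino acid breakdown, peroxide removal and detoxification, or are regulators such as REST, a repressor of neuronal genes in most other tissues.

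Values were present for 22657 to 23365 probes per array, and precision is limited by the count of arrays. The standard deviation of the log2 ratios over all probes was 0.506 ± 0.0257 (SD, n = 5) on db/db and 0.231 ± 0.0472 (SD, n = 5) on db/+ arrays. As for the tissue, Slc2a2 (the beta cell glucose transporter), Slc30a8 (the granule zinc transporter) and Iapp (islet amyloid polypeptide) had mean reference intensities of 18.6, 18.5 and 15.8 units on the 5, 5 and 3 db/db arrays with a value. On the same db/db arrays the Cy5 means were 4.49 units for Slc2a2, 10.01 for Slc30a8 and 19.3 for Iapp. These genes had no value on db/+ arrays and were not tested. The probe listed for Ins1 stood at 0.044 units, and Ins2 was not analysed here.

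Of the 10 silenced genes, 4 were higher in db/db islets and 0 lower. These were Oat (2.04-fold), Zfp36l1 (1.73-fold on its brighter probe), Slc16a1 (1.60-fold) and Cat (1.52-fold). In the db/+ islet reference, Oat was brighter than 76.6% of probes, Zfp36l1 than 65.9%, Cat than 54.3% and Slc16a1 than 37.9%. The name silenced thus refers to normal beta cells and not to the signal of these islets. The other 6 genes, Ldha, Acot7, Mgst1, Tst, Rest and Lmo4, did not pass the test. Among all 19567 genes, each taken at its brightest probe, 16.9% were higher and 17.9% lower at the same threshold, an adjusted p under 0.05 in limma. Over single probes the shares were 15.9% higher and 17.1% lower, together 33%, against 4 of the 11 probes of these genes. All 4 rises were also of at least 1.5-fold, a size that 6.92% of probes reached upwards and 5.57% downwards with an adjusted p under 0.05. The median log2 difference (db/db minus db/+) of the 10 genes was 0.22, beside -0.02 over all tested probes. That median was 0.12 without db/db replicate 2, 0.07 after quantile normalization and 0.0523 with the mesenchymal covariate described further on. In the same 4 genes every db/db array lay above every db/+ array, a separation seen in 12.1% of the 21954 probes with a value on all arrays, beside 12.4% with all db/db arrays below. In bulk islet RNA, more cells that express a gene and more RNA of it per cell cannot be told apart.

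**Figure D1:**
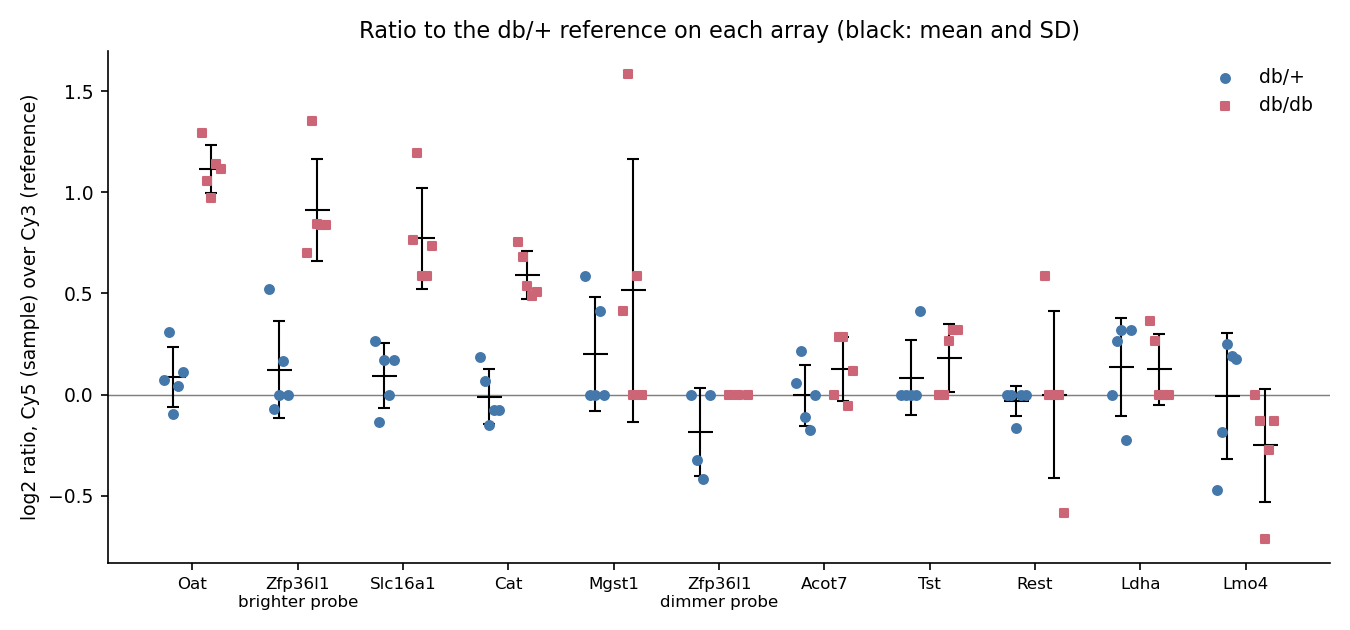
Log2 ratio of the Cy5 sample signal over the Cy3 reference signal (vertical axis) for each probe (horizontal axis) on 5 db/+ arrays (circles) and 5 db/db arrays (squares), with the mean and SD in black. For Oat, Cat, Slc16a1 and the brighter Zfp36l1 probe all db/db points lie above all db/+ points, and for the other probes the groups overlap.

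Oat encodes ornithine aminotransferase, a mitochondrial enzyme that turns ornithine into glutamate semialdehyde, on the route between ornithine, proline and glutamate. Its log2 ratios to the reference were 1.29, 1.05, 0.97, 1.14 and 1.11 in db/db replicates 1 to 5. In db/+ replicates 1 to 5 they were 0.07, 0.31, -0.10, 0.04 and 0.11. The lowest db/db array thus stood 0.97 above the reference while the highest db/+ array stood at 0.31. The difference was 1.03 ± 0.08 SE on the log2 scale (limma adjusted p = 1.94e-05). In absolute signal the Cy5 intensity was 2.12 ± 0.162 (SD, n = 5) units in db/db and 1.102 ± 0.164 (SD, n = 5) in db/+. The difference of Oat was larger than that of 97.2% of tested probes, and its call held under every alternative processing that was run, including both fits with a cell type marker mean as a covariate (lowest log2 difference 0.62, highest adjusted p = 0.0454).

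Cat encodes catalase, the peroxisomal enzyme that breaks down hydrogen peroxide, and its low level is a known reason why beta cells tolerate peroxide poorly. The db/db log2 ratios were 0.75, 0.68, 0.54, 0.49 and 0.51, and the db/+ ratios were 0.18, 0.07, -0.15, -0.08 and -0.07. The lowest db/db ratio, 0.49, was above the highest db/+ ratio, 0.18. The difference was 0.60 ± 0.08 SE (limma adjusted p = 0.000309). The Cy5 intensity was 0.296 ± 0.023 (SD, n = 5) units in db/db and 0.204 ± 0.0305 (SD, n = 5) in db/+.

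Slc16a1 encodes MCT1, which carries lactate and pyruvate across the plasma membrane, and whose abnormal presence in human beta cells is known to let exercise trigger insulin release. Its log2 ratios were 0.77, 1.19, 0.58, 0.58 and 0.74 in db/db and 0.26, -0.14, 0.17, 0.00 and 0.17 in db/+. The ratio was thus high on each db/db array and highest on replicate 2. The difference was 0.68 ± 0.13 SE (limma adjusted p = 0.00249). The signal was low, with Cy5 intensities of 0.12 to 0.17 units in db/db and 0.09 to 0.12 in db/+, so these groups touched at 0.12 units in Cy5 although their ratios were separate. Intensities were rounded to 0.01 units, and with every value at its least favourable rounding the difference would lie between 0.39 and 0.97.

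Zfp36l1 encodes a zinc-finger protein that binds AU-rich elements in messenger RNAs and speeds their decay. On the brighter probe the log2 ratios were 0.70, 1.35, 0.84, 0.84 and 0.84 in db/db and 0.52, -0.07, 0.00, 0.17 and 0.00 in db/+. Replicate 2 was far above the other db/db arrays, and db/+ replicate 1 was the highest control. The difference was 0.79 ± 0.15 SE (limma adjusted p = 0.0026), and it was 0.68 without db/db replicate 2 (adjusted p = 0.0031). The Cy5 intensity was 0.798 ± 0.109 (SD, n = 5) units in db/db and 0.452 ± 0.134 (SD, n = 5) in db/+. The dimmer probe had 3 db/db and 4 db/+ values at 0.03 to 0.05 units and did not pass (0.18 ± 0.12 SE, adjusted p = 0.295), so the call of this gene rests on 1 probe.

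The calls of Slc16a1 and Zfp36l1 ended after quantile normalization of the ratios (log2 differences 0.37 and 0.46, both adjusted p = 0.13). That normalization gives every array the same distribution of ratios, although their standard deviation was 0.506 on db/db and 0.231 on db/+ arrays. It narrows db/db ratios and widens db/+ ratios by design, so a call that it ends does not decide whether a gene changed. With the mean of mesenchymal markers as a covariate, the differences were 0.0363 for Slc16a1, 0.142 for Cat and 0.0684 for Zfp36l1, and none of these passed the test (adjusted p = 0.971, 0.608 and 0.941). The values of those markers are given with the cell type lists further on. For all 4 genes the exact permutation test of the 5 against 5 arrays gave p = 0.00794, two-sided. That is the smallest value it can give, and it follows from the separation of the arrays already described, so it adds no further support. The authors' deposited p-values, which compare both channels of an array, were under 0.01 on 5 of 5 db/db arrays for Oat, Slc16a1 and the brighter Zfp36l1 probe and on 4 of 5 for Cat, and on 0 of 5 db/+ arrays for each.

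Ldha encodes the muscle-type subunit of lactate dehydrogenase, which turns pyruvate into lactate. Its probe was close to the floor of the scale, with Cy5 intensities of 0.09, 0.06, 0.05, 0.06 and 0.04 units in db/db and 0.04, 0.06, 0.05, 0.06 and 0.05 in db/+. The log2 ratios ran from 0.00 to 0.36 in db/db and from -0.22 to 0.32 in db/+, and the groups overlapped almost entirely. The difference was -0.01 ± 0.13 SE (limma adjusted p = 0.972), with a 95% interval of -0.29 to 0.27. At a mean reference of 0.051 units 1 rounding step is worth 0.26 on the log2 scale, and rounding alone could place the difference anywhere between -0.58 and 0.56. Whether Ldha RNA changed was therefore not readable from this probe, whose position in the gene was not given.

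Acot7 encodes a cytosolic thioesterase that splits long-chain acyl-CoA into fatty acid and CoA. Its log2 ratios were 0.00, 0.28, 0.28, -0.06 and 0.12 in db/db and 0.06, 0.21, -0.11, -0.18 and 0.00 in db/+. The groups overlapped, and the difference of 0.13 ± 0.09 SE did not pass (limma adjusted p = 0.332, 95% interval -0.08 to 0.34). Here the mean reference was 0.247 units, and a rise the size of that of Cat lay outside the interval.

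The detoxification genes were dim. Mgst1, a membrane-bound glutathione transferase, had a mean reference of 0.028 units, log2 ratios from 0.00 to 1.58 in db/db and from 0.00 to 0.58 in db/+, and a difference of 0.32 ± 0.29 SE (adjusted p = 0.46). Its largest ratio came from db/db replicate 2, where the Cy5 value was 0.03 units and the Cy3 value 0.01. Tst, the mitochondrial rhodanese that moves sulfur from thiosulfate to cyanide, had a mean reference of 0.05 units and Cy5 means of 0.054 ± 0.0114 (SD, n = 5) units in both groups. Its difference in log2 ratio was 0.10 ± 0.11 SE (adjusted p = 0.509).

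Rest encodes the RE1-silencing transcription factor. It was listed at 0.02 units on 4 of 5 arrays of each group in Cy5, the others reading 0.03 units on a db/db array and 0.00891 on a db/+ array. Its difference of 0.03 ± 0.18 SE (adjusted p = 0.921) could lie between -1.44 and 1.43 by rounding alone, so no statement on Rest RNA is drawn from this probe. Lmo4 encodes a LIM-only adaptor protein of transcription complexes. Its log2 ratios were 0.00, -0.13, -0.72, -0.28 and -0.13 in db/db and -0.47, -0.18, 0.25, 0.19 and 0.18 in db/+. The 3 db/+ arrays of highest ratio lay above all db/db arrays while the other 2 lay within the db/db range, and the difference of -0.24 ± 0.17 SE did not pass (adjusted p = 0.326, 95% interval -0.64 to 0.15).

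**Figure D2:**
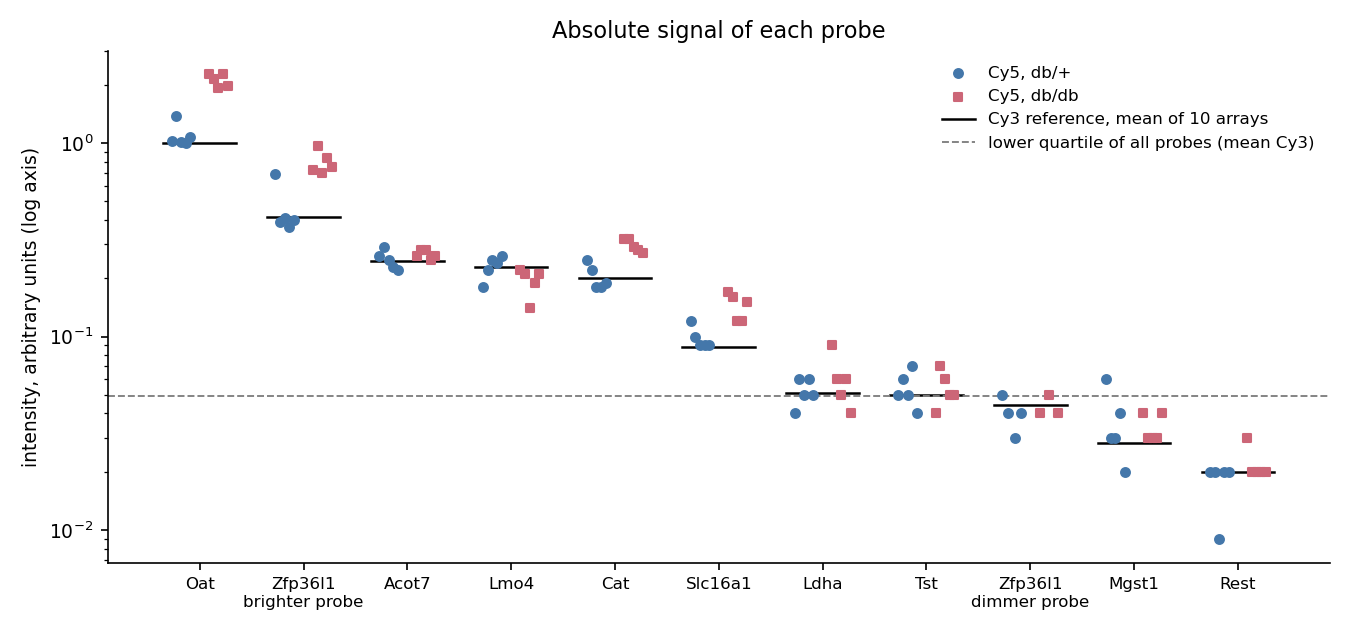
Cy5 intensity in arbitrary units (log axis) of each probe on 5 db/+ arrays (circles) and 5 db/db arrays (squares), with the mean Cy3 reference as a black line and the lower quartile of all probes, 0.049 units, as a dashed line. The mean references of Mgst1, Rest and the dimmer Zfp36l1 probe lie under the dashed line, although single Cy5 points of Mgst1 and that Zfp36l1 probe lie above it. The mean references of Ldha and Tst lie close to the line, and the 4 genes that were called lie above it.

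The split between called and uncalled genes went with signal only in part. Acot7 and Lmo4 were not called at mean references of 0.247 and 0.229 units. Cat and Slc16a1 were called at 0.2 and 0.088 units. All 4 called genes were among the 6 with a mean reference over 0.08 units, and 0 of the 4 genes under 0.06 units passed. Of all 14822 tested probes over 0.08 units, 19.8% were called higher. No such share was taken for probes under 0.06 units. The limit of 0.08 units was set after the values were seen, so these counts are a description. The Cy3 reference of the 11 probes differed between the arrays of the groups by -0.28 to 0.18 on the log2 scale, and 0 of 11 passed limma (lowest adjusted p = 0.871). For Slc16a1 the reference differed by -0.18. Its Cy5 signal without the reference gave a log2 difference of 0.49 (limma adjusted p = 0.0118), less than the 0.68 of its ratio.

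**Figure D3:**
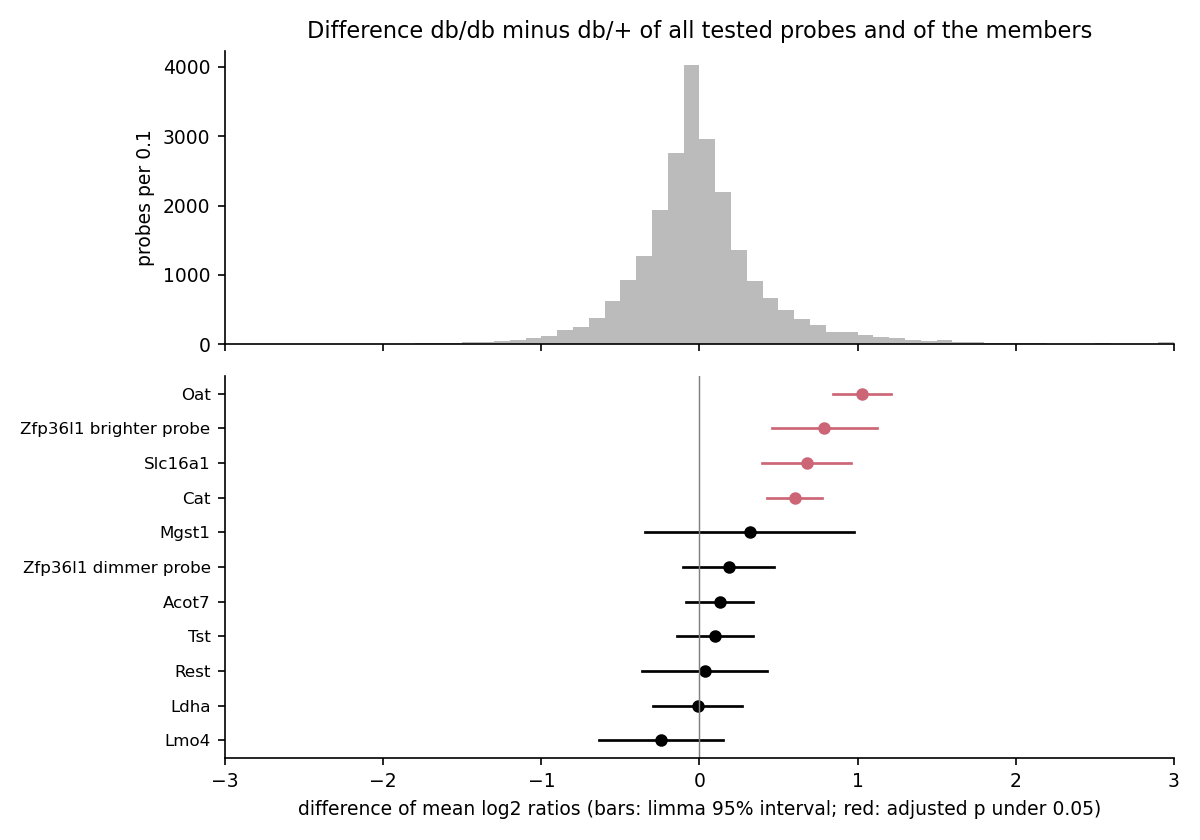
Upper panel, number of tested probes per 0.1 of the log2 difference between db/db and db/+, with values beyond 3 placed in the end bins. Lower panel, the difference of each probe of the silenced genes with limma's 95% interval, red where the adjusted p was under 0.05. Oat at 1.03 stands farthest to the right and Lmo4 at -0.24 farthest to the left.

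The promoters of the 4 genes that rose together are shown to set their sequence make-up side by side. Each sequence runs from 250 bases before to 50 bases after the transcription start (RefSeq, build GRCm38.p6), 5′ to 3′ on the strand of the gene, with 1 annotated start per gene. They lie at chr7:132576349-132576648 on the minus strand for Oat, chr2:103485104-103485403 on the minus strand for Cat, chr3:104638414-104638713 on the plus strand for Slc16a1 and chr12:80112964-80113263 on the minus strand for Zfp36l1. Capitals mark a CCAAT box (CCAAT or ATTGG), a GC box (GGGCGG or CCGCCC) or an E-box (CACGTG).
Oat: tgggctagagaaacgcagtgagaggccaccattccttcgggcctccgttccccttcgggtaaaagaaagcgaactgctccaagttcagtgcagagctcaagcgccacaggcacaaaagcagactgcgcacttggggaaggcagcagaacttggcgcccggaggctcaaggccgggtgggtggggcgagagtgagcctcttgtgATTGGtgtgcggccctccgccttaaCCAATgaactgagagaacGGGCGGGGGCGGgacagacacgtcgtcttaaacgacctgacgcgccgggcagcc
Cat: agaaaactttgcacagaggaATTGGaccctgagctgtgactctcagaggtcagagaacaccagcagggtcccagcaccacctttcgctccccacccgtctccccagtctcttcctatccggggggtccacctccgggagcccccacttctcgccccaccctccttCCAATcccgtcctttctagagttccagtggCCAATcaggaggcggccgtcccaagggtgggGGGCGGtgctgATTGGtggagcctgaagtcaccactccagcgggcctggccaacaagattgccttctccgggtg
Slc16a1: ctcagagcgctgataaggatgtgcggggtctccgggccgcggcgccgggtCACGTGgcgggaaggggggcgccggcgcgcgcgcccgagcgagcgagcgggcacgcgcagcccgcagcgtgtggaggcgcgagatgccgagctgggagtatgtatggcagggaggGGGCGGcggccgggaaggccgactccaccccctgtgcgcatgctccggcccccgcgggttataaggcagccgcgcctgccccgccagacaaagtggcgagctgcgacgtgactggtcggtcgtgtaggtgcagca
Zfp36l1: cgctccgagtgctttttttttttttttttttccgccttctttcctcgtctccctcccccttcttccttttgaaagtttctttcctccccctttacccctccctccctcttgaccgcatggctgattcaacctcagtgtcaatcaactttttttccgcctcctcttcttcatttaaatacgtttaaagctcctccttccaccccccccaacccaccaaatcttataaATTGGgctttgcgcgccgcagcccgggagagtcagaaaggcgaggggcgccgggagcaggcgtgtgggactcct

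The 4 promoters were unlike in these letters. A CCAAT box, present in 37.4% of the 32817 mouse promoters of this length, occurred 4 times in Cat, 2 times in Oat and 1 time in Zfp36l1, and did not occur in Slc16a1. A GC box, present in 35.6%, occurred 2 times in Oat and 1 time each in Cat and Slc16a1. An E-box, present in 7.15%, occurred 1 time in Slc16a1 and 2 times in the upstream promoter of Ldha. CG dinucleotides, the sites of DNA methylation in mammals, numbered 42 in Slc16a1, 22 in Oat, 15 in Zfp36l1 and 11 in Cat, against a median of 7 over all promoters. Among the genes that were not called, the numbers were 30 and 13 for the 2 starts of Ldha, 52, 30 and 31 for the 3 of Lmo4, 13 and 1 for the 2 of Mgst1 and 6 for Acot7. These are matches of letters, and no binding or methylation was measured.

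A second set of 20 genes that are also held low in beta cells was set beside the 10. In this set 11 genes were higher in db/db and 1 was lower, beside 16.9% and 17.9% of all genes, and the median log2 difference was 0.48. Tgm2, the protein-crosslinking transglutaminase 2, was 4.52-fold higher, and Hk2, a high-affinity hexokinase, 2.29-fold higher. Smad3, a signal carrier of TGF-beta, was 2.20-fold higher, and Zyx, a focal adhesion protein, 1.43-fold lower. The set was chosen with earlier results of these data known, and its count fell to 1 higher and 0 lower after quantile normalization, where Tgm2 alone passed, and to 0 higher and 3 lower with the mesenchymal covariate. Pdgfra, 1.63-fold higher, is counted both in this set and among the mesenchymal markers from which that covariate was built. Without the array of largest spread in each group, db/+ replicate 4 and db/db replicate 2, 7 genes of the set were higher and 1 lower. In that setting 4 of the 10 silenced genes stayed higher.

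Of 12 tested neighbours of Ldha and Slc16a1 in pyruvate handling, 0 were higher and 4 lower, and 1 was higher without db/db replicate 2. Pcx, pyruvate carboxylase, fell 2.18-fold (log2 difference -1.12 ± 0.10 SE, limma adjusted p = 3.24e-05), from a Cy5 mean of 2.04 units in db/+ to 0.942 in db/db. Mpc1, listed on the array as Brp44l and part of the carrier that brings pyruvate into mitochondria, fell 1.53-fold. Pdhb, a pyruvate dehydrogenase subunit, fell 1.19-fold, and the ratio of Ldhb, the heart-type subunit of lactate dehydrogenase, was 1.34-fold lower. The calls of Pdhb and Ldhb ended after quantile normalization (adjusted p = 0.115 and 0.119). The Cy5 means of Ldhb were alike, 0.08 units in db/db and 0.082 in db/+, beside a mean reference of 0.098. Its Cy5 signal without the reference gave a log2 difference of -0.17 (limma adjusted p = 0.624), so a fall of Ldhb RNA is not established. Among the relatives of Slc16a1, Slc16a7 gave -0.33 ± 0.15 SE and Slc16a8 0.05 ± 0.10 SE, neither of which passed (adjusted p = 0.124 and 0.725), and Slc16a3 was listed at 0.022 and 0.024 units, too dim to read.

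In the acyl-CoA thioesterase family, 4 of 11 tested relatives of Acot7 were higher and 0 lower, with a median log2 difference of 0.14. Acot11 rose 1.69-fold, Acot9 1.54-fold and Acot10 1.26-fold, and the call of Acot10 ended after quantile normalization (adjusted p = 0.631). Acot12 was 2.81-fold higher, but from 0.026 Cy5 units in db/+, where the fold is coarse. Of 11 tested genes that share substrates with Oat, 1 was higher and 1 lower, or 2 lower without db/+ replicate 1 or db/db replicate 3. Pycr1, the last enzyme of proline synthesis, which uses the product of Oat, rose 2.50-fold (1.32 ± 0.09 SE, limma adjusted p = 8.23e-06), with Cy5 means of 8.04 units in db/db and 3.25 in db/+. Aldh4a1, which oxidises the same product to glutamate, fell 1.47-fold. Its call ended without the arrays of largest spread (adjusted p = 0.0674), with a covariate of acinar markers (adjusted p = 0.116) and with the mesenchymal one (adjusted p = 0.936).

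Other enzymes that remove peroxides went both ways, with 4 of 10 higher and 2 lower, or 1 lower without any of db/+ replicates 1 to 5 or db/db replicates 1, 2 and 5. Prdx4, the peroxiredoxin of the endoplasmic reticulum, rose 2.13-fold, Gpx8 2.08-fold and Prdx1 1.34-fold, and the mitochondrial Prdx3 fell 1.41-fold. Gpx8 rose from 0.034 Cy5 units in db/+, where the fold is coarse. After quantile normalization the calls of Gpx8 and Prdx1 ended (adjusted p = 0.152 and 0.105). The call of Prdx1 also ended in the Cy5 signal without the reference (log2 difference 0.30, limma adjusted p = 0.0614). Of 5 relatives of Mgst1 in the MAPEG family of membrane proteins, 1 passed, the leukotriene synthesis cofactor Alox5ap, which was 1.73-fold higher but not after quantile normalization (adjusted p = 0.132). Mgst2 gave 0.83 ± 0.62 SE and Mgst3 0.06 ± 0.08 SE, and neither passed (adjusted p = 0.342 and 0.641). Of 9 genes related to Tst or to sulfide oxidation, 2 were higher and 1 lower, or 2 lower without db/+ replicate 4 or db/db replicate 1, 2 or 3. The cystathionine synthase gene Cbs fell 1.78-fold, and Tstd3 and Tstd1, which share the rhodanese fold, were 1.39-fold and 1.73-fold higher. The call of Tstd1 ended without any 1 of 7 arrays (highest adjusted p = 0.0819) and after quantile normalization (adjusted p = 0.221).

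The genes around the regulators did not move one way. Of 9 REST corepressors 1 was higher and 2 lower, near the shares of 16.9% and 17.9% among all genes. Sin3a was 1.39-fold and Hdac1, a histone deacetylase, 1.27-fold lower, and Sin3b 1.18-fold higher. The calls of Hdac1 and Sin3b ended after quantile normalization (adjusted p = 0.225 and 0.352). That of Sin3b also ended without db/+ replicate 5 (adjusted p = 0.0523) and in the Cy5 signal without the reference (limma adjusted p = 0.568). Of 15 tested genes known as targets of REST, 5 were higher and 2 lower, and the median log2 difference was -0.02. Without db/+ replicate 2 or 3 or db/db replicate 5, 1 was lower. Vgf, a secreted granin-like protein, rose 3.94-fold, from a Cy5 mean of 5.65 units in db/+ to 19.9 in db/db. Celf4, listed as Brunol4 on the array, rose 1.44-fold and Mapk8ip1 fell 1.57-fold. Bdnf, a neurotrophin, was 4.80-fold higher, from 0.028 units in db/+, where the fold is coarse. All 6 tested genes of the ZFP36 list passed, 3 higher and 3 lower. Zfp36 itself (tristetraprolin) fell 2.61-fold, opposite to Zfp36l1, while Zfp36l2 was 1.22-fold higher. The calls of both ended after quantile normalization (adjusted p = 0.0555 and 0.389). In the deadenylase complex that these proteins recruit, Cnot6, a catalytic subunit, fell 1.76-fold, the scaffold gene Cnot1 fell 1.21-fold and Cnot8 rose 1.25-fold. Cnot7, another catalytic subunit, was 2.74-fold higher (adjusted p = 0.0116), with Cy5 means of 17.1 units in db/db and 7.76 in db/+. After quantile normalization the calls of Cnot8, Cnot1 and Cnot7 ended (adjusted p = 0.0842, 0.354 and 0.144).

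Of 9 tested LMO genes and LIM partners 3 were higher and 2 lower. Lmo1, a close relative of Lmo4, rose 2.15-fold (adjusted p = 0.000218), and Ssbp2, a partner of the LIM-binding protein LDB1, fell 1.61-fold. Lhx1, a LIM-homeodomain factor, rose 1.76-fold. Ssbp3 was 1.23-fold lower, a call that ended without any 1 of 6 arrays (highest adjusted p = 0.0698) and after quantile normalization (adjusted p = 0.204). Ldb1 gave -0.13 ± 0.10 SE and the islet factor Isl1 0.02 ± 0.07 SE, and neither passed (adjusted p = 0.39 and 0.869). Among 12 tested genes of DNA methylation and of the Polycomb histone mark, 0 were higher and 6 lower, beside 17.9% lower among all genes. The median log2 difference was -0.27. The lower genes include Kdm6a (1.31-fold), whose product removes the Polycomb mark, so the count is not one of repressors alone. After quantile normalization 4 were lower, and with the mesenchymal covariate 1 was lower and the median was 0.11. Rnf2, a ubiquitin ligase of Polycomb complex 1, fell 1.46-fold, Suz12, a core subunit of complex 2, 1.29-fold, Ezh1 1.41-fold and Cbx8 1.53-fold. The call of Cbx8 ended after quantile normalization (adjusted p = 0.195). Dnmt3a, a DNA methyltransferase known to repress disallowed genes in young beta cells, gave -0.14 ± 0.07 SE and did not pass (adjusted p = 0.158).

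**Figure D4:**
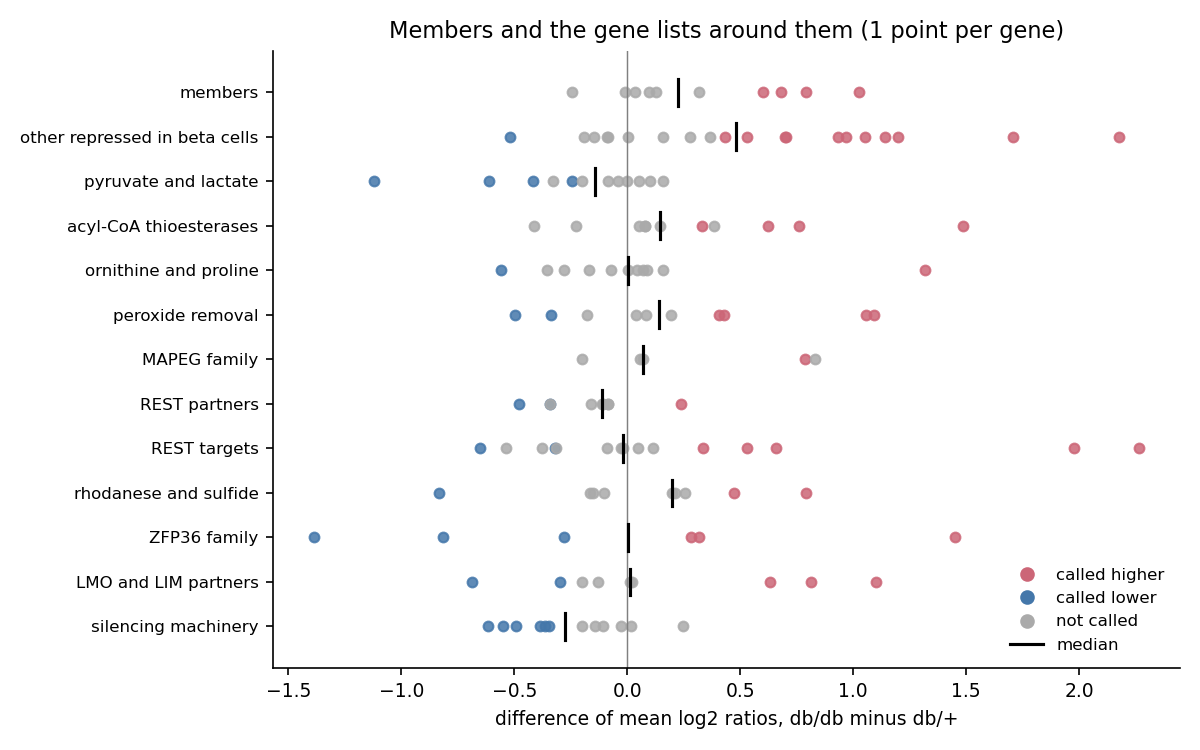
Log2 difference between db/db and db/+ (horizontal axis) of the silenced genes, named members in the plot, and of 12 gene lists around them, 1 point per gene, coloured by whether the adjusted p was under 0.05 and in which direction, with the median of each list in black. The 4 called silenced genes lie between 0.60 and 1.03, and the pyruvate and silencing lists have called genes on the left side only.

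Several of these genes are also expressed outside beta cells, and markers of other cells differed between the groups. Of 9 mesenchymal markers 8 were higher in db/db, and 5 passed after quantile normalization. Of the 4 brightest in the reference, Vim was 3.15-fold, Pdgfrb 2.63-fold and Col3a1 6.55-fold higher, and Acta2 gave 0.55 ± 0.26 SE (adjusted p = 0.136). Their median log2 ratio per array ran from 0.98 to 1.74 in db/db and from -0.23 to 0.46 in db/+, and their summed Cy5 signal from 6.18 to 9.75 units and from 1.94 to 4.07 units. The highest mesenchymal values of each group were on db/db replicate 2 and db/+ replicate 1, the arrays that were also highest in their group for Slc16a1 and Zfp36l1. As the marker values of the groups did not overlap, the covariate that ended the calls of Slc16a1, Cat and Zfp36l1 largely repeats the genotype, and the part of these cells in the result was not tested further.

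Of 5 tested acinar markers 0 were higher and 1 lower, the amylase gene Amy2b (2.19-fold, adjusted p = 0.0851 after quantile normalization), and their summed signal was 10.1 to 22.28 units in db/db and 21.98 to 32.01 in db/+. Without db/db replicate 2, and in the Cy5 signal without the reference, 4 of the 5 were lower. Of 8 duct markers 3 were higher and 0 lower (summed signal 24.4 to 30.2 and 16.3 to 23.3 units), and of 8 macrophage markers 4 were higher and 0 lower (11.8 to 19.1 and 10.4 to 17.8). Of 4 red cell markers 2 were higher and 1 lower (10.8 to 27.9 and 2.96 to 11.4). After quantile normalization 0 red cell markers passed, and 1 was higher without any of db/+ replicates 2 to 5 or db/db replicates 1, 3 and 4. Of 8 endothelial markers 1 was higher and 2 lower (10.96 to 15.4 and 7.68 to 11.1), with 2 higher without db/+ replicate 1, and of 6 tested alpha cell markers 2 were higher and 1 lower (3.08 to 3.55 and 2.19 to 2.78). Some of these sums rest mostly on 1 bright probe. Plvap, the higher endothelial gene, had Cy5 means of 9.38 units in db/db and 4.96 in db/+, and the macrophage gene Itgam, not called, 12.1 and 12.2. Of 7 tested beta cell markers 0 were higher and 3 lower, among them the transcription factor gene Pdx1 (1.42-fold), while the called Mafa and Ucn3 read 0.044 units or less in both groups. Their summed signal was 5.34 to 6.06 units in db/db and 6.15 to 7.14 in db/+. The part of these cell types in the rise of the silenced genes was not tested.

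**Figure D5:**
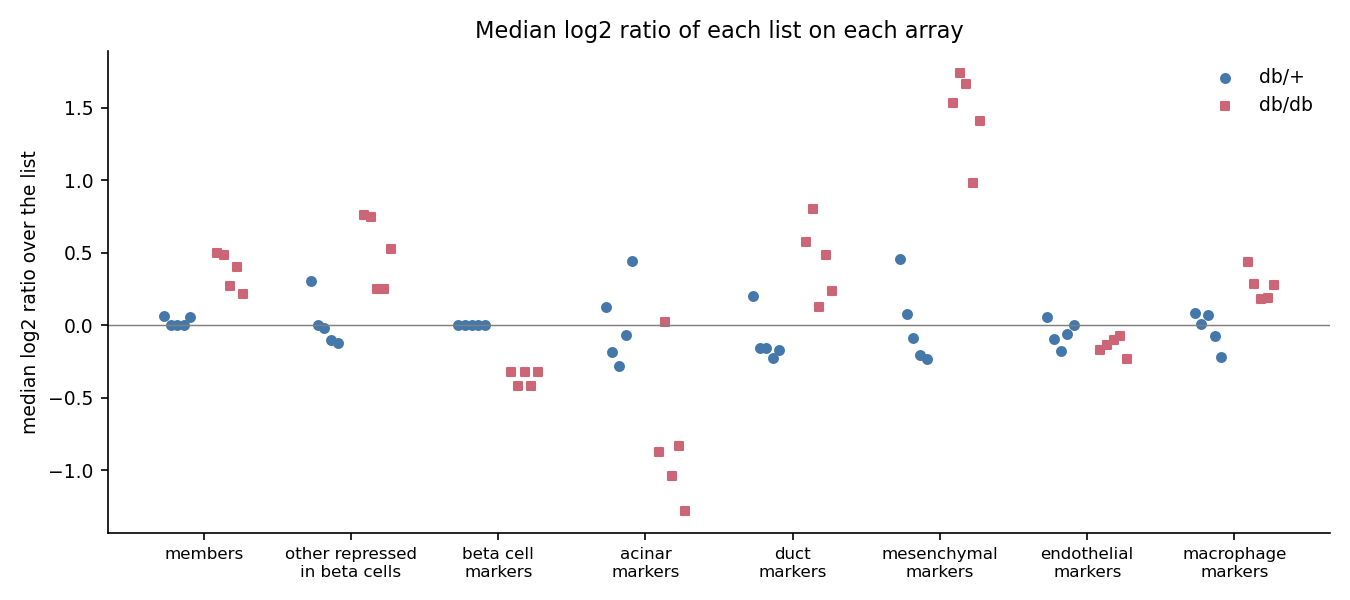
Median log2 ratio over each gene list (vertical axis) on each of 5 db/+ arrays (circles) and 5 db/db arrays (squares), replicates 1 to 5 from left to right. The mesenchymal values of db/db arrays, 0.98 to 1.74, lie above all db/+ values, while beta cell markers lie at 0 on every db/+ array and lower on every db/db array.

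The genes whose ratios followed each called gene most closely over the 10 arrays were sought among 17822 genes, by the mean absolute difference of log2 ratios. Nearest to Oat were P4ha2, a collagen prolyl hydroxylase (0.07), Sirt5, a mitochondrial deacylase (0.07), and Dse (0.08). Nearest to Cat were Rhbdd3, C1qtnf6 and the mitochondrial ribosomal protein gene Mrpl43, each at 0.06. Rasa4 (0.09), Rassf9 (0.11) and Mdfic (0.11) were nearest to Slc16a1. Tpcn2 (0.10), Myl4 (0.11) and Ambra1 (0.13) were nearest to the brighter Zfp36l1 probe, with Tpcn2 at a reference of only 0.023 units.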

How the data were processed

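Islet RNA of 10 samples was amplified before labelling, per the labels, and hybridised to arrays of both dyes. The submitters' processing notes name Agilent Feature Extraction, version 8.5.1.1. The deposited intensities of the channels are in arbitrary units, mostly rounded to 0.01, and the authors added a p-value for each probe and array. The deposited log10 ratios were checked to equal the log10 of Cy5 over Cy3 intensity and were turned into log2 ratios without further scaling. Background correction, dye normalization, blanking of spots and genome build were not given in the sources used. All arrays share 1 dye orientation.

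The test was limma's (version 3.58.1, R 4.3.3) on probes with at least 3 values per group (group as the single term, two-sided, adjusted p under 0.05 after Benjamini-Hochberg correction across 23138 probes). A gene in a list is shown by its tested probe of highest mean Cy3 intensity. Rounding bounds place every intensity 0.005 units to the side that shrinks or widens the difference. The fit was tested on simulated ratios with the spread and blanks of these probes.

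The genes and lists were chosen with earlier results of these data known. Named are all 10 silenced genes, and in each list at most 4 called genes with the lowest adjusted p-values. Relatives of a silenced gene and marker genes of highest signal in the reference are named too. Cnot7, Kdm6a and Pdgfra were added after their values were seen, and Kdm6a and Pdgfra are not in the counts of named genes. A further gene was left out of the lists and is not reported here. Array symbols were updated through the RefSeq table of GRCm38.p6 (18956 probes by symbol, 622 by accession, 1775 by synonym). Promoters came from RefSeq and were found for 8 of the 10 genes. Other steps used Python 3.11.15, pandas 2.3.3, scipy 1.17.1 and matplotlib 3.10.9.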

Additional observations from a re-analysis of the deposited data

Results flagged for a closer look

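Of 21 groups of 4 or 5 values, 3 held an array whose gap to its nearest neighbour exceeded Dixon's 95% critical value, and chance flags about 1 in 20 such groups. Db/db replicate 2 stood at a log2 ratio of 1.35 for the brighter Zfp36l1 probe, the other db/db arrays lying between 0.70 and 0.84. Db/+ replicate 5 stood at 0.42 for Tst and db/+ replicate 3 at -0.17 for Rest, where the other db/+ arrays of each gene were all listed at 0. The Tst value is 0.04 units in Cy5 over 0.03 in Cy3, and the Rest value is 0.00891 over 0.01.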

How the results depend on the processing

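All probes: 3678 were called higher and 3946 lower. Counts moved to 1836 and 1667 after quantile normalization, to 2365 and 2432 with the acinar covariate, to 930 and 894 with the mesenchymal covariate and to 1602 and 1288 at 1.5-fold or more, and higher calls to 2439 in the Cy5 signal without the reference. Leaving out 1 array gave 3237 to 3600 higher and 3408 to 3888 lower. Quantile normalization gives db/db and db/+ arrays the same spread of ratios by design. The cause of these moves was not tested.

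Of the silenced genes, Oat kept its call in all alternatives. Quantile normalization left 0.37 for Slc16a1 and 0.46 for Zfp36l1 (adjusted p = 0.13 for both) and 2 higher genes of 10. The mesenchymal covariate left 0.0363 for Slc16a1, 0.142 for Cat, 0.0684 for Zfp36l1 and 1 higher gene. With the acinar covariate Mgst1 passed (1.09, adjusted p = 0.0425). Leaving out 1 array ended none of the 4 calls (highest adjusted p = 0.00868).

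Of 50 other named genes that were called, 20 lost the call after quantile normalization, 17 with the acinar covariate and 37 with the mesenchymal covariate. In the Cy5 signal without the reference 7 lost it. The losses include Amy2b, itself part of the acinar mean, and Col3a1 and Pdgfrb, part of the mesenchymal mean, where a loss is largely built in. The mesenchymal covariate turned the sign of Mpc1 (0.0408), Pdhb (0.0809), Sin3b (-0.046), Tstd1 (-0.54), Cnot1 (0.0668), Cnot7 (-0.26), Ssbp3 (0.116) and Ezh1 (0.0464). Calls in the other direction appeared in some lists that had none. The thioesterases had 1 lower without db/+ replicate 3, in the Cy5 signal without the reference and with the replicate block. They also had 1 lower without probes under the lower quartile or the median of intensity. Without db/+ replicate 4 or the arrays of largest spread, the silencing list had 1 higher and the duct list 1 lower. Array weights also gave 1 higher in the silencing list. The pyruvate and macrophage lists had such calls too.

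Same-numbered arrays of the groups correlated by only 0.03 to 0.20 in their deviations from the group means, so the numbers were not taken as pairs. With the replicate block 3549 probes were higher and 3919 lower, and 4 of the 10 genes kept their calls. Blank spots and values rounded to 0.01 units limit dim probes most.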
